A study of Drosophila melanogaster with 4 samples.

Results

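The regions described here are the H3K9me1 domains shorter than 10000 bp along the left arm of Drosophila melanogaster chromosome 2 (2L), up to the last 2 Mb before the centromere. A domain is a region that the authors listed as enriched for histone H3 mono-methylated at lysine 9. The authors' list that combines both ChIP replicates supplied the members, which were chosen by measured values: a call of enrichment on 2L, a length under 10000 bp and a midpoint at or below position 21011544. This gave 2123 of the 13702 domains of the combined list (15.5%). The rule left out 132 domains of 10000 bp or more on the same stretch and 166 domains of any length nearer to the centromere. Because these values chose the members, and because that list rests on both ChIP samples, every value below is a description and no test was made.

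Lysine 9 of histone H3 can carry 1, 2 or 3 methyl groups. The forms with more methyl groups mark the heterochromatin around fly centromeres, where heterochromatin protein 1 (HP1a) binds them. In Drosophila the enzymes Su(var)3-9, Eggless and G9a methylate this residue, and the mono-methylated form is both a product of these reactions and a step towards the higher forms. Most of 2L is euchromatin, the gene-rich and less condensed part of the chromosome.

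The study holds 2 ChIP samples, made with lot 2 of an antibody to H3K9me1, and 2 input samples of the unprecipitated chromatin. All 4 came from nuclei of wild-type Oregon-R larvae of the third instar, and no group carries a mutation or a treatment. Each input served as the background of the ChIP sample with the same number. Nuclei came from homogenised larval tissue, so many cell types contribute to each value, and a domain present in few cells cannot be told apart from a weak one present in many. The labels do not say whether the replicates came from separate collections of larvae, so differences between them may be technical. How deeply the libraries were sequenced is unknown, so the counting error of the values cannot be given. Positions are on FlyBase release 5, with 2L 23.0 Mb long and the stretch described 21 Mb long. The genes and sequence under the domains were not analysed here.

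The replicates contributed lists of unlike grain. Over the stretch, replicate 1 listed 1304 domains under 10 kb and replicate 2 listed 1738, or 1521 ± 307 (SD, n = 2). Replicate 1 also listed 125 domains of 10 kb or more (8.75% of its domains), and replicate 2 listed 45 (2.52%). Domains of any length covered 29.7% of the stretch in replicate 1 and 25.6% in replicate 2, a mean of 27.7% ± 2.86 (SD, n = 2). Domains under 10 kb held 63.4% of the domain bases of replicate 1 and 88.8% of those of replicate 2. Thus the list with more domains had the lower cover, and the shorter domains made up more of it. At most, a domain reached 63384 bp in replicate 1, while replicate 2 had none above 23761 bp. The 2123 members covered 27.2% of the stretch, and with the long domains the combined list covered 37.8%.

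The members were grouped by the replicate lists that they overlapped, and those under both replicates formed the largest group. Of the 2123 members, 721 (34.0%) shared at least 1 bp with a domain of each replicate, 571 (26.9%) with a domain of replicate 1 alone, 543 (25.6%) with one of replicate 2 alone and 288 (13.6%) with neither. Over all 12859 domains under 10 kb of the combined list, these shares were 33.9%, 22.5%, 30.6% and 13.1%. The share under both replicates on 2L lay next to that of the whole list, so it was no feature of this arm. When at least 50% of the member had to lie in each replicate, 552 members (26.0%) remained under both. Members under both were longer than the others and held 52.6% of the bases of all members. By contrast, 129 of the 132 longer domains of the same stretch (97.7%) overlapped both replicates.

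No member lay over its whole length inside the domains of both replicates. Of the bases of members, 65.5% lay in domains of replicate 1, 56.1% in those of replicate 2, 31.6% in both and 10.1% in neither. A total of 566 members lay wholly inside replicate 1 and 463 wholly inside replicate 2, but 0 lay wholly inside both. Seen from the replicates, 1198 of the 1304 domains under 10 kb of replicate 1 (91.9%) overlapped a member, 42 overlapped only a longer combined domain, and 64 (4.91%) overlapped no combined domain. In replicate 2, 1258 of 1738 (72.4%) overlapped a member, 319 (18.4%) overlapped only a longer combined domain, and 161 (9.26%) overlapped none. Short domains of replicate 2 thus lay under long combined domains more often by count than those of replicate 1. The domains with no counterpart in the combined list were short, with a median of 1509 bp in replicate 1 and 1587 bp in replicate 2. Of the bases that the replicates shared on the stretch, 99.9% were in the combined list.

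Where a member met exactly 1 domain of each replicate, and neither of these met another combined domain, the edges could be compared. There were 449 such members. The start of the replicate 1 domain lay 377 bp from that of replicate 2 (median absolute distance), and the ends lay 370 bp apart. Both edges agreed within 500 bp for 166 of the 449 (37.0%) and within 1000 bp for 256 (57.0%). The members had a median length of 3070 bp, against 2516 bp for the domains of replicate 1 and 2145 bp for those of replicate 2, and 249 of them (55.5%) were longer than both replicate domains. In these matched members the combined list therefore drew wider borders than either replicate in most cases.

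Length separated the classes of overlap. The median length was 1982 bp over all members, with quartiles of 1402 and 3313 bp and a range of 1001 to 9958 bp. It was 3546 bp in members under both replicates, 1838 bp under replicate 1 alone, 1702 bp under replicate 2 alone and 1182.5 bp under neither. Of the 630 members shorter than 1500 bp, 10 (1.59%) overlapped both replicates. The share was 25.8% of the 691 members from 1500 bp to under 2500 bp, 57.3% of the 553 from 2500 bp to under 5000 bp and 86.7% of the 249 from 5000 bp upwards. A longer region has more bases that can meet a domain, and a minimum of 1 bp favours it. With at least 50% of the member in each replicate, the shares in the same order of length were 0.317%, 24.0%, 42.0% and 61.0%.

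**Figure D1:**
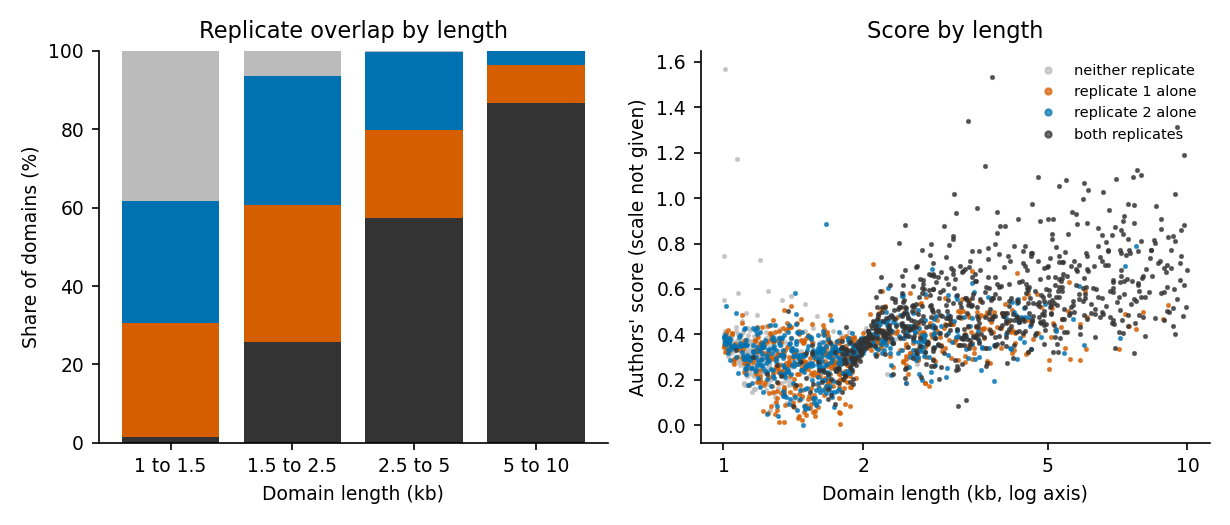
Left, the share of domains (%) in each class of replicate overlap by domain length (kb); the share under both replicates is 1.59% in the shortest class and 86.7% in the longest. Right, each point is 1 of the 2123 domains, with its length (kb, log axis) and the authors' score; scores dip and then narrow near 2 kb, and 2 short domains under neither replicate stand high above their length class.

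The authors gave each region a score, on a scale that the sources used here do not state, and it was used only to rank and describe regions within a list. The median score of the members was 0.366, with quartiles of 0.297 and 0.467. It was 0.495 in members under both replicates, 0.338 under replicate 1 alone, 0.337 under replicate 2 alone and 0.334 under neither. Above the upper quartile of scores, 418 of 531 members (78.7%) lay under both replicates, against 71 of 530 (13.4%) below the lower quartile. These scores come from the list that combines both replicates, so they are not independent of the overlap with them. Score and length went together, with a Spearman rho of 0.62 over the 2123 members, which share their libraries and are not independent. Within lengths from 2500 bp to under 5000 bp, 207 of the 277 members in the upper part of the scores (74.7%) lay under both replicates, and 110 of the 276 in the lower part (39.9%). Below 1500 bp the order was turned round, with 2 of 315 in the upper part and 8 of 315 in the lower.

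The scores did not climb evenly with length. Below 1600 bp they fell as length grew, with a Spearman rho of -0.34 over 703 members, and from 1600 bp upwards they climbed, with a rho of 0.69 over 1420. The replicate lists barely shared the fall, with a rho below 1600 bp of -0.06 in replicate 1 and -0.07 in replicate 2. Their shortest domains measured 1301 and 1303 bp. Both shared the climb, with a rho of 0.75 and 0.73. Length classes of 200 bp are named here by their lower bound. Members of the 1000 bp class had a median score of 0.339, those of the 1400 bp class one of 0.273, and those of the 2000 bp class one of 0.387. The spread was narrow around 2 kb. From the 10th to the 90th percentile, scores spanned 0.312 in the 1400 bp class, 0.143 in the 2000 bp class and 0.446 from 6000 bp upwards. The replicate lists had the same narrow place, with spans of 0.165 in replicate 1 and 0.168 in replicate 2 in the 2000 bp class, against 0.351 and 0.303 in the 1400 bp class. No member of the 2000 bp class scored under 0.305, although members of the 1400 bp class reached down to 0.000966.

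The 5 highest-scoring members under both replicates lay between 2747123 and 19577490. All but the one at 2747123 started at 12040630 or beyond. The first, of 3.79 kb from 14490177 to 14493962, had a score of 1.53. It lay wholly in a domain of replicate 1 that scored 1.42 and ranked 23 there, and 69.0% of it lay in a domain of replicate 2 that scored 0.838 and ranked 200. Ranks count all domains of the list on the stretch. The next, from 16509016 to 16512387, scored 1.34 and was matched almost base for base, from 16509053 to 16512401 in replicate 1 (rank 27) and from 16509023 to 16512315 in replicate 2 (rank 10). That member thus stood high in all 3 lists.

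The other 3 members named for their score differed in how well the replicates matched them. The one from 2747123 to 2756640 scored 1.31 and ranked 2 in replicate 1, with 99.9% of its length there, but 34.7% of it lay in replicate 2, at rank 321. A member from 19567656 to 19577490, of 9.84 kb, scored 1.19 and ranked 14 in both replicates. The fifth, from 12040630 to 12044299, scored 1.14 and ranked 28 in replicate 1 and 113 in replicate 2. Of the 20 members with the highest scores, 18 lay under both replicates, 2 under neither and 0 under 1 replicate alone. The combined score is not independent of this overlap, so the count is only a description.

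The longest members lay just inside the limit of length, and the values around that limit are given once. The longest measured 9958 bp, from 2729043 to 2739000, and the shortest domain beyond the limit measured 10001 bp, from 5085801 to 5095801. The other 4 of the 5 longest started at 2936633, 15737417, 19567656 and 1740799 and measured 9926, 9837, 9835 and 9820 bp. All 5 overlapped both replicates, with 55.1% to 99.8% of their length in replicate 1 and 68.7% to 98.6% in replicate 2. The last member before the limit of position ran from 20994893 to 20998228. The first short domain beyond it ran from 21012124 to 21020637, and both overlapped 1 long domain of replicate 1, from 20994987 to 21020666.

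Some members stood high in 1 replicate list and had no counterpart in the other. A domain of 1664 bp from 5176671 to 5178334 scored 0.887 and lay over the top-ranked domain of replicate 2 on the stretch (score 1.49), with 0% of its length in replicate 1. A second such member lay close by, from 5157525 to 5165270, over the domain that ranked 5 in replicate 2. The third, from 16779915 to 16787252, lay over a domain of rank 31. Under replicate 1 alone, the highest scores were 0.710 from 7735597 to 7737696, 0.681 from 6919268 to 6922695 and 0.672 from 12433420 to 12437716, over domains that ranked 89, 65 and 147 there. Thus the member over the top-ranked domain of replicate 2 on this stretch met no domain of replicate 1.

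The 288 members under neither replicate were short. Of these, 197 (68.4%) were shorter than 1301 bp, the shortest domain in either replicate list on the stretch. Among all 415 members below that length, 47.5% lay under neither. For those under neither, the distance to the nearest replicate domain had a median of 1212.5 bp and reached 96024 bp. A total of 128 (44.4%) lay within 1000 bp of one. The member with the highest score on the whole stretch was of this class. It measured 1006 bp, from 7983155 to 7984160, and scored 1.57, with the nearest replicate domain 423 bp away. Another, of 1069 bp from 14467996 to 14469064, scored 1.17 and lay 191 bp from a replicate domain. The next highest, of 1003 bp from 2934603 to 2935605, scored 0.744, and 4 members of this class scored above 0.6 in all.

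Along the arm, the number of members changed by megabase while their length and score varied less. Counts ran from 46 to 145 per megabase, with a median of 96. The fullest megabases were 7 to 8 Mb with 145 members, 19 to 20 Mb with 143 and 6 to 7 Mb with 133, and the emptiest were 17 to 18 Mb with 46 and 15 to 16 Mb with 63. The median length per megabase stayed between 1633 and 2425 bp, and the median score between 0.319 and 0.389. Long domains followed another course. They covered 27.7% of the first megabase, their highest share, and 0% of 15 to 16 Mb. Both kinds were few at 15 to 16 Mb, with 63 members and 0 long domains, and at 17 to 18 Mb, with 46 and 1. The megabase between these held 96 members, the median count, and 3 long domains.

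**Figure D2:**
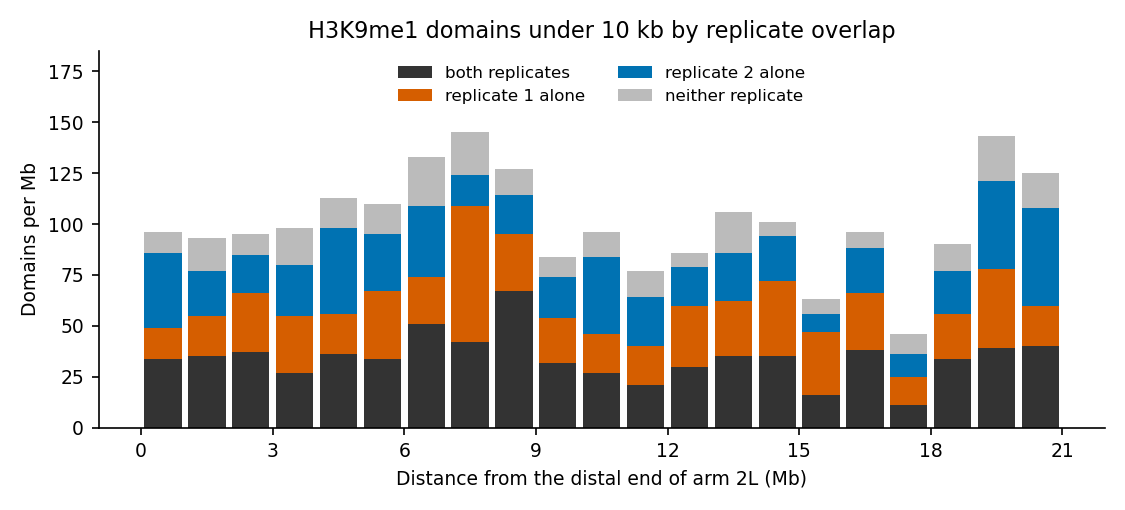
Number of domains under 10 kb in each megabase of the stretch, by distance from the distal end of the arm (Mb), stacked by the replicates they overlap. Totals run from 46 at 17 to 18 Mb to 145 at 7 to 8 Mb, where domains under replicate 1 alone make up 46.2%.

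Distal and proximal parts of the stretch were set side by side. The proximal part, from 10505773 to 21011544, held 982 members and 48 long domains, and the distal part, from 1 to 10505772, held 1141 members and 84 long domains. cover by replicate domains was 25% in replicate 1 and 21.3% in replicate 2 in the proximal part, against 34.4% and 29.9% in the distal part. Both replicates thus had less cover in the proximal part, 23.2% ± 2.58 against 32.2% ± 3.14 (SD, n = 2 each). Cover did not fall steadily along the arm. In sections of 3 Mb from the distal end, mean cover was 34.4%, 30.9%, 34.4%, 23.1%, 26.1%, 14.3% and 30.3%. The median gap between members was 1724 bp in the proximal part and 1853 bp in the distal part. The median length of members was 1932.5 bp in the proximal part and 2053 bp in the distal part.

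The replicates took different shares of the arm in places. Replicate 1 covered more than replicate 2 in 14 of the 21 megabases. From 7 to 8 Mb it covered 45.2% and replicate 2 covered 25.4%, and from 14 to 15 Mb the values were 39.1% and 20.9%. Elsewhere the replicates were close, as in the first megabase with 44.4% in replicate 1 and 44.2% in replicate 2, or at 17 to 18 Mb with 8.07% and 8.27%. The sign of the difference in cover often, but not always, went with that of the members under 1 replicate alone. Members under replicate 1 alone outnumbered those under replicate 2 alone in 12 of the 14 megabases where replicate 1 covered more, and the reverse held in 6 of the 7 others. In the first megabase, where cover was close, 15 members lay under replicate 1 alone and 37 under replicate 2 alone. At 7 to 8 Mb, 67 of 145 members lay under replicate 1 alone and 15 under replicate 2 alone, while at 20 to 21 Mb the counts were 20 and 48 of 125. The share under both ran from 23.9% at 17 to 18 Mb to 52.8% at 8 to 9 Mb.

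**Figure D3:**
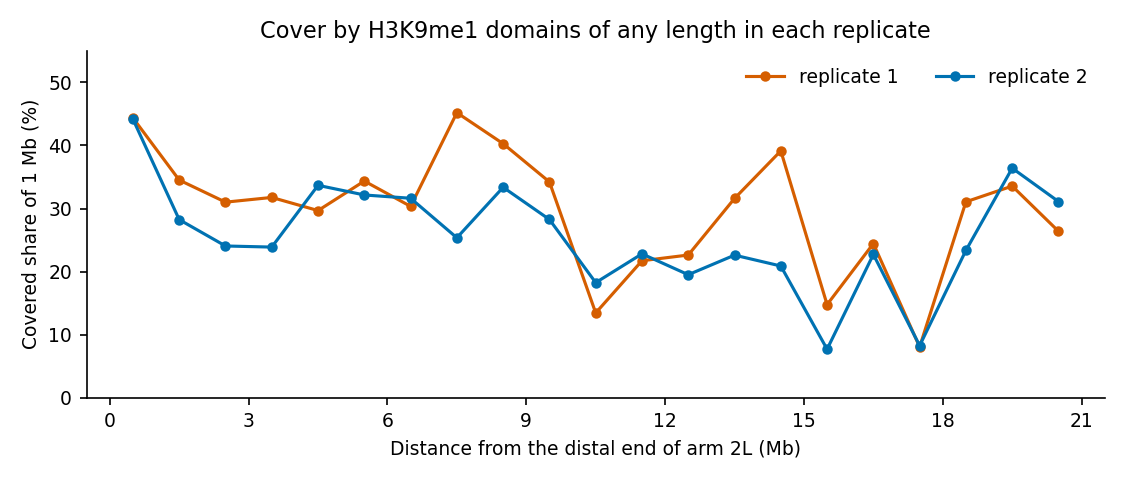
Share of each megabase (%) covered by domains of any length in ChIP replicate 1 and ChIP replicate 2, by distance from the distal end of the arm (Mb). Replicate 1 is lowest at 17 to 18 Mb (8.07%) and replicate 2 at 15 to 16 Mb (7.71%), and replicate 1 stands well above replicate 2 at 7 to 8 Mb (45.2% and 25.4%) and 14 to 15 Mb (39.1% and 20.9%).

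Windows of 100 kb showed the local contrast. The 210 full windows held 10.1 ± 5.68 members (SD over windows), with a median of 11 and a range of 0 to 23. A total of 52 windows held 15 or more members, and these dense windows contained 898 members, 42.3% of all. Another 34 windows held 3 or fewer, and 11 of them held 0. Dense windows had a median cover of 42.8% in replicate 1 and 29.8% in replicate 2. Sparse windows had 0% and 4.38%. In 29 of the 34 sparse windows the mean cover of the replicates was under 10%. In 3 others long domains covered more than 50% of the window. The share of members under both replicates was 35.0% in dense windows and 22.9% of the 48 members in sparse ones.

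The window with the most members lay at 19.2 to 19.3 Mb with 23. Next came 4 windows with 21 each, at 8.9 to 9 Mb, 14.3 to 14.4 Mb, 19 to 19.1 Mb and 20.3 to 20.4 Mb. They did not rest equally on the replicates. In the first, 4 members lay under both replicates, 11 under replicate 1 alone, 2 under replicate 2 alone and 6 under neither, and the members were short, with a median of 1525 bp. Among the 4 tied windows, in order along the arm, 11, 11, 3 and 7 members lay under both. The first windows without a member, in order along the arm, lay at 1.8 to 1.9 Mb, 2.6 to 2.7 Mb and 5.6 to 5.7 Mb. A long domain covered 15.6% of the window at 1.8 Mb. The windows at 2.6 and 5.6 Mb had 0% cover in replicate 1 and 1.35% and 3.57% in replicate 2. The longest runs of windows above the median had 8 windows each. One ran from 6 to 6.8 Mb with 115 members, and the other from 6.9 to 7.7 Mb with 130. The longest run below the median ran from 15.5 to 16.4 Mb, with 0 to 8 members in each of 9.

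**Figure D4:**
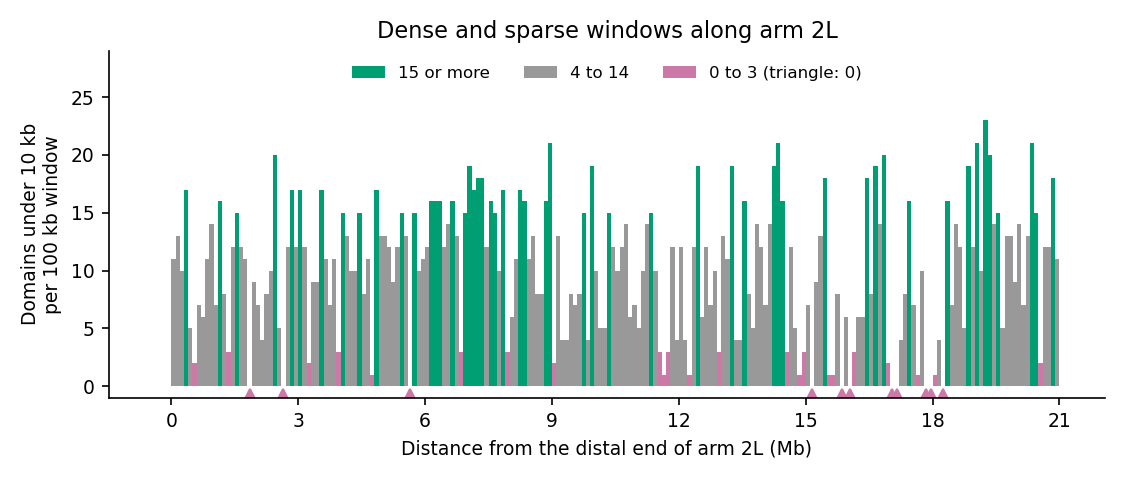
Number of domains under 10 kb in each of 210 windows of 100 kb, by distance from the distal end of the arm (Mb), with windows of 15 or more, 4 to 14 and 0 to 3 domains in separate colours and triangles at windows with 0. Dense windows are most frequent at 7 to 8 Mb, where 7 of the 10 are dense, and 8 of the 11 empty windows lie beyond 15 Mb.

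Across these windows the replicates varied together in part. The number of domains under 10 kb per window gave a Pearson r of 0.52 and a Spearman rho of 0.57 between the replicates, and the covered share gave 0.65 and 0.69. Neighbouring windows are not independent, and the replicates share an arm and its mappable sequence. The covered shares differed by a median of 8.74 points per window, and by 20 points or more in 46 windows (21.9%), of which replicate 1 was higher in 33 and replicate 2 in 13. Over all 210 windows the balance was near even, with replicate 1 higher in 104, lower in 100 and equal in 6. The windows that differed most were picked after their values were seen. At 14.4 to 14.5 Mb replicate 1 covered 91.0% and replicate 2 covered 27.2%, and at 14.5 to 14.6 Mb the values were 94.3% and 30.8%. In the other direction, at 19 to 19.1 Mb, replicate 1 covered 14% and replicate 2 covered 47.0%, and 12 of the 21 members there lay under replicate 2 alone.

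Spacing between members was uneven. The median gap from the end of one member to the start of the next was 1794 bp, with quartiles of 521.75 and 5832.5 bp. Of the 2122 gaps, 787 (37.1%) were 1000 bp or less, 63 were 50 kb or more, and these 63 made up 27.3% of the stretch. Gaps between domains under 10 kb were wider within each replicate list, with medians of 2794 bp in replicate 1 and 3057 bp in replicate 2. The replicate lists also held fewer domains under 10 kb. All these gaps, those between members included, take in any longer domain that lies between, so they are not all free of H3K9me1 calls. A replicate can join a pair of neighbours only where both overlap its domains. Of the 1122 pairs at most 2000 bp apart, both members overlapped replicate 1 in 597, and a single domain joined 130 of these (21.8%). Both overlapped replicate 2 in 467, of which a single domain joined 95 (20.3%).

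The 5 longest stretches without a member also held no long domain. They ran from 16929530 to 17241753 (312 kb), 17782637 to 18005767 (223 kb), 15068239 to 15245130 (177 kb), 15982845 to 16150038 (167 kb) and 5558865 to 5725689 (167 kb), so that 4 of the 5 lay beyond 15 Mb. Counted from 1 shared bp, replicate 1 had 0, 1, 1, 0 and 0 domains wholly or partly in them, in the same order. Replicate 2 had 4, 4, 1, 4 and 3. Cover in any of them was at most 0.224% in replicate 1 and 2.80% in replicate 2. In all, 54 stretches of 50 kb or more held no combined domain. They added up to 5.15 Mb, and 13 of them were centred between 15 and 18 Mb. They contained 3 whole domains of replicate 1, in 2 of the stretches, and 42 of replicate 2, in 21 of them. The domains of replicate 2 there had a median length of 1689 bp and a median score of 0.474. Over all its domains under 10 kb on the stretch these medians were 2116 bp and 0.539. Those from 1600 bp to under 1800 bp had a median score of 0.413. Whether reads could be placed on these stretches was not tested.

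Clusters were formed by joining neighbours at most 2000 bp apart. This gave 1001 groups, of which 530 were single members (25% of all members). There were 79 clusters of 5 or more, with 549 members (25.9%), and they spanned 9.78% of the stretch. Their spans had a median of 23.7 kb and ranged from 7.90 to 57.0 kb, and a median of 84.7% of a span lay inside members. Members of clusters were longer than single ones, with a median of 2432 bp against 1768.5 bp, and 42.6% of them lay under both replicates against 24.7% of single ones. The share under both climbed with length, and the 2 groups were not matched for it. Replicate 1 alone accounted for 31.5% of members in clusters and 23.8% of single ones. For replicate 2 alone the shares were 16% and 35.3%, the other way round. Replicate 1 covered more of the span than replicate 2 in 52 of the 79 clusters. In 74 clusters at least 1 member lay under both replicates. With 34.0% of all members under both, a group of 5 or more is likely to hold one. This count therefore does not set clusters apart.

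**Figure D5:**
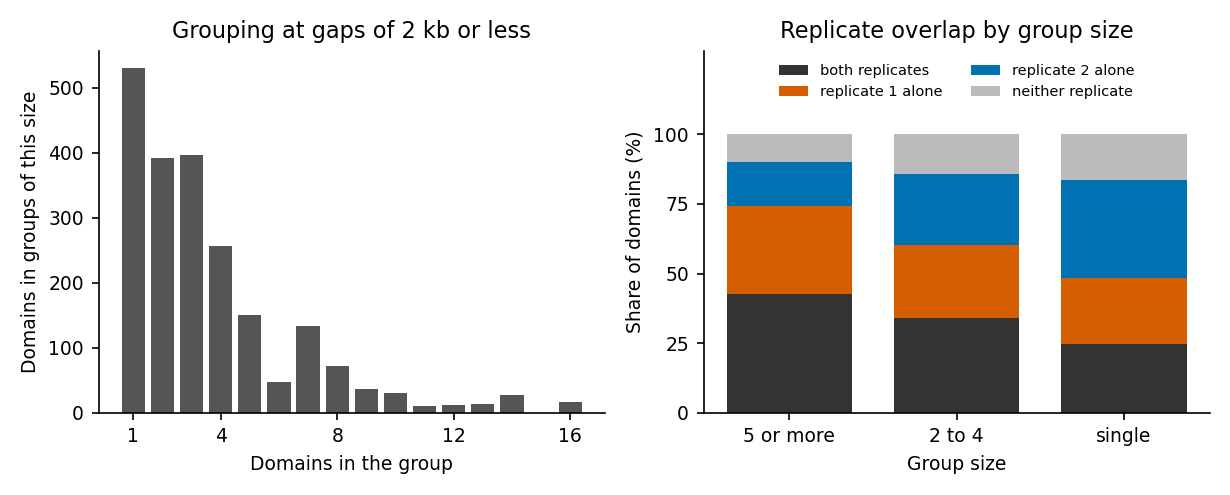
Left, the number of domains in groups of each size when neighbours at most 2 kb apart are joined; 530 stand alone and the largest group has 16. Right, the share of domains (%) in each class of replicate overlap for clusters of 5 or more, groups of 2 to 4 and single domains; the share under both replicates is 42.6% in clusters and 24.7% in single domains.

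The cluster with the most members had 16 in 50.9 kb, from 3077697 to 3128553. They measured 1089 to 7458 bp and scored 0.202 to 0.688, and 4 of them lay under both replicates, 5 under replicate 1 alone, 2 under replicate 2 alone and 5 under neither. The replicates listed fewer regions over the same span, 8 in replicate 1 and 5 in replicate 2, which covered 57.8% and 26.6% of it. Clusters of 14 lay from 16605074 to 16662119 (57.0 kb), with 9 members under both, and from 7525354 to 7578656 (53.3 kb), with 8 under both. The fourth, of 13 members from 1564856 to 1611123, and the fifth, of 12 members from 2420461 to 2474520, had 6 under both each. In all 5 the cover of the span was higher in replicate 1 (54.3% to 75.6%) than in replicate 2 (26.6% to 43.4%).

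Members supported by the same replicate often followed each other along the arm. After a member under replicate 1 alone, the next lay under replicate 1 alone in 44.3% of cases, and after one under replicate 2 alone in 14.5%. After a member under replicate 2 alone, the next lay under replicate 2 alone in 47.5% of cases, and after one under replicate 1 alone in 11.2%. After a member under both replicates, the next lay under both in 44.9%. Of all members, 26.9% lay under replicate 1 alone, 25.6% under replicate 2 alone and 34.0% under both. A single replicate domain can lie under both neighbours of a pair, which then share that overlap. This was so in 134 of the 2122 neighbouring pairs for replicate 1 and in 96 for replicate 2. Runs of 5 or more successive members of 1 class numbered 20 for both replicates, with 116 members, 18 for replicate 1 alone, with 130, and 18 for replicate 2 alone, with 109. Most runs were short, and 203 of the 318 runs of replicate 1 alone and 164 of the 285 of replicate 2 alone had a single member.

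The longest run was of replicate 1 alone, and it shows how the lists can part. It had 16 members from 15349967 to 15421167, a span of 71.2 kb, with lengths of 1096 to 3656 bp and scores of 0.297 to 0.486. Replicate 1 listed 14 domains there that covered 82.7% of the span, and replicate 2 listed 0. The longest run of replicate 2 alone had 11 members from 20206195 to 20268618, where replicate 2 listed 11 domains that covered 38.9% and replicate 1 listed 0. The longest run under both had 9 members from 4032123 to 4087923, with lengths of 2632 to 8132 bp. There replicate 1 covered 79.9% and replicate 2 covered 81.0%. Members of this last run scored 0.454 to 0.834, a range that met that of the run of replicate 1 alone only at its lower end.

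Members beside long domains differed from those far from them. A total of 155 members (7.30%) lay less than 2 kb from a domain of 10 kb or more, and 987 (46.5%) lay at least 50 kb away. The near members had a median length of 3035 bp and a median score of 0.446, and 91 of them (58.7%) lay under both replicates. The far ones had a median length of 1849 bp and a median score of 0.357, and 277 (28.1%) lay under both. Between these, 40.4% of the 230 members at 2 to 10 kb and 34.6% of the 751 at 10 to 50 kb lay under both. Near and far members were not matched for length. Over all members, 57.3% lay under both from 2500 bp to under 5000 bp, and 25.8% from 1500 bp to under 2500 bp. A difference by distance beyond that of length was not tested.

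The same rule was applied to 3L, 3R and X, without the 2 Mb next to the centromere, to place 2L among them. Arm 2R was not part of this comparison. On 2L there were 101 members per megabase, against 114 on 3L, 101 on 3R and 128 on X. The median length was 1982 bp on 2L and 2055.5, 1974 and 2036 bp on 3L, 3R and X. The share under both replicates was 34.0% on 2L and 35.4%, 32.9% and 34.6% on the others. Replicate 1 alone accounted for 26.9% of members on 2L, for 27.3% on 3L, 25.8% on 3R and 11.5% on X, and replicate 2 alone for 25.6% on 2L and 24.5%, 25.8% and 42.5% on 3L, 3R and X. The median score was 0.366 on 2L and 0.364, 0.360 and 0.431 on the others. Clusters of 5 or more held 25.9% of the members on 2L, against 30.9%, 30.5% and 30.0%. The longest stretch without a member measured 312 kb on 2L, 212 kb on 3L, 328 kb on 3R and 114 kb on X, and windows without a member numbered 11 of 210, 5 of 225, 12 of 259 and 0 of 204. On X the balance of the replicates differed from the 3 other arms compared, with 29.3% of the stretch covered in replicate 1 and 41.6% in replicate 2. Arm 2L shared the higher cover in replicate 1 with 3L and 3R. The arms were not tested against each other, since each is a single sequence in the same samples.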

How the data were processed

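H3K9me1 ChIP-seq was done in 2 ChIP replicates, each with its input. Bowtie 0.12.7 is named in the submitters' processing notes, and the build is FlyBase release 5 per the file headers. The peak caller and its thresholds, the sequencing depth and the way the replicates were combined were not given in the sources used here. The authors deposited 3 region lists with a score per region, above 0 in enriched and below 0 in depleted regions, on an unstated scale. Depth and thresholds can decide whether a weak region is called or a long one is split, so counts, lengths and gaps depend on the upstream calls. Positions were read as the lists give them, counted from 1.

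Overlap means at least 1 shared bp. Windows and megabases count a region by its midpoint. A gap runs from the end of one member to the start of the next, and covered shares count bases. Named regions were chosen by rule: the top 5 members by score under both replicates, the top 3 by score in each other class, the 5 longest, the 5 clusters with the most members, the 3 fullest windows with their ties and first 3 emptiest windows, the 5 longest gaps and the regions at the limits. The 3 members with the most replicate domains, with 5 replicate domains each, start at 74583, 2236285 and 2936633. The runs of members, the windows with the largest replicate difference and the classes of score by length were chosen after values were seen. Members, lists and measures were chosen with earlier results of these data known. Gene annotation was at hand on release 6 alone and positions were not converted, so no gene or sequence is given. The interval functions were tested on simulated lists. The software was numpy 2.4.6 and scipy 1.17.1 (Python 3.11.15).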

Additional observations from a re-analysis of the deposited data

Results flagged for a closer look

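Regions that the authors marked as depleted of H3K9me1 enter no comparison above. The combined list holds 9 of them on the stretch of 2L, against 2 in replicate 1 and 0 in replicate 2. They measured 1265 to 1758 bp and scored -0.107 to -0.00160. Of the 9, 4 met an enriched domain of replicate 1 alone, 3 met one of replicate 2 alone and 2 met none. The 2 of replicate 1 overlapped no enriched domain of either replicate.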

How the results depend on the processing

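The 7 summary values were recomputed in 32 ways, and 27 were labelled as moved while 5 were not. The yardsticks were the spread of the replicate lists, the interval of the share or 1.5 times the count. That interval treats neighbouring members as independent, which they are not, so the tally is only a description. A label of moved can stand for a small change, as from 0.397 to 0.404 for the Jaccard index. Most alternatives remove or join regions and change these values by construction. The share of members under both replicates (34.0%) was 53.8% when the lower-scoring members were dropped at the median, 38.7% after merging within 1000 bp and 26.0% with 50% of the length required, and members under 1 given replicate made up 59.5% to 60.9% when the other was left out. Cover of the stretch (27.7%) was 20.8% from domains under 10000 bp, 20.2% from the better-scoring domains, 22.7% from 2000 bp, 37.8% in the combined list and 25.6% to 29.7% with 1 replicate left out. The Jaccard index of the replicate lists, shared bases over bases in either, was 0.397 on the stretch, and 0.261, 0.335, 0.357 and 0.404 with domains under 10000 bp, better-scoring ones, those from 2000 bp and merged ones. The median gap (1794 bp) was 1477 bp between domains of any length, 4986 bp between better-scoring members and 3992 bp between those from 2000 bp. Clusters of 5 or more (79) numbered 34 and 162 with gaps of at most 1000 and 5000 bp, 14 from better-scoring members and 5 from members under both replicates. The median length (1982 bp) was 3013 bp in better-scoring members, 3546 bp under both replicates and 2116 to 2204 bp in single replicate lists. The SD of counts per window over their mean (0.562) was 0.681, 0.432 and 0.325 with windows of 50, 200 and 500 kb. No paired analysis was possible because no list of regions is held for the inputs. Sequencing depth is unknown, so no counting limit can be given.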
